A study of Mus musculus with 8 samples.

Results

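Red cell genes were read in RNA from cells sorted and labelled as eosinophils, from mouse bone marrow and small intestine. The set was matched to the expression table by gene symbol and held 9 of its 38392 genes: the adult globin genes Hba-a1, Hba-a2, Hbb-bs and Hbb-bt, the haem enzyme gene Alas2, the transcription factor gene Klf1, the receptor gene Epor, and the carbonic anhydrase genes Car1 and Car2. All 9 symbols were found. In the small intestine libraries the 4 globin genes together had 16 reads against 4035 in bone marrow, Car1 and Car2 were also lower, Alas2 was lower by a much smaller amount, and Klf1 and Epor did not pass the test.

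Eosinophils are granulocytes made in the marrow that take up residence in the gut wall, and the series compared them at these places. All libraries came from wildtype female mice of strain C57/BL6, with 4 libraries per tissue. The methods give an age range for all mice of the study, and the age of these animals is not stated. The marrow gate was CD11b+Ly6G-Ly6C-SiglecF+SSChi, and the intestinal gate was CD11b+MHC-II-SiglecF+SSChi. Per the methods, marrow was flushed from femur and tibia, its red cells were lysed in ACK buffer, and it was not enriched on beads. Intestinal cells were freed from tissue stripped of epithelium by warm collagenase digestion and enriched with anti-CD11b beads, and lysis of red cells is not described for them. Tissue, gate and handling therefore cannot be told apart. Nor can, in RNA from sorted bulk samples, a smaller number of red cell precursors and less RNA per cell.

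Red cell precursors form in the marrow under erythropoietin, which binds the receptor encoded by Epor. The factor encoded by Klf1 binds CACCC letters and is required for adult beta globin expression, and Alas2 encodes the erythroid enzyme of the first step of haem synthesis. Haemoglobin joins alpha and beta chains, from Hba and Hbb genes, with haem, and carbonic anhydrases interconvert carbon dioxide and bicarbonate in red cells and in other cells.

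The stretch of 120 bases before the RefSeq start is printed for Hba-a1, Hbb-bs, Hbb-bt, Alas2 and Klf1. Capitals mark AGATAA or TGATAA (bound by GATA factors), CACCC (bound by KLF factors), the letters CCAAT, and the letters TATAA, on either strand, read 5' to 3' on the strand of the gene, in build GRCm38.p6. The Hba-a1 stretch is chr11:32283552-32283671 on the plus strand, Hbb-bs chr7:103827929-103828048 and Hbb-bt chr7:103813924-103814043 on the minus strand, Alas2 chrX:150547297-150547416 and Klf1 chr8:84901862-84901981 on the plus strand.
Hba-a1: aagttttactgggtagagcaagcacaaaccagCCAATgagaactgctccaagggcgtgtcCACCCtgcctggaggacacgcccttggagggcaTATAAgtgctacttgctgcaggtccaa
Hbb-bs: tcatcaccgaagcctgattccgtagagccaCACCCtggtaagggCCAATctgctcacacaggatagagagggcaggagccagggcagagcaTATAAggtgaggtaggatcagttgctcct
Hbb-bt: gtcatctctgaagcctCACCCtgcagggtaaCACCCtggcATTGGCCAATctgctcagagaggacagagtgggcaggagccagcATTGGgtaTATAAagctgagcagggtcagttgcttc
Alas2: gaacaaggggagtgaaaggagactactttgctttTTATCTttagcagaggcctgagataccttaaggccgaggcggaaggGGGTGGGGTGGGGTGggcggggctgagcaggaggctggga
Klf1: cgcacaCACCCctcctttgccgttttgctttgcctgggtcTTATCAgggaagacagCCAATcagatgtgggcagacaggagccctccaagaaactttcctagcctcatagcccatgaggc

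RefSeq windows were found for 7 of the 9 genes. Hba-a1 and Hba-a2 agreed at 247 of 247 compared bases once shifted by 3, and Hbb-bs and Hbb-bt at 127 of 249. In the 250 bases before the start, AGATAA or TGATAA occurred in Hba-a1, Hba-a2, Hbb-bs, Alas2, Klf1 and Epor and not in Hbb-bt, against 16.6% of 32851 promoters. CACCC occurred in all 7 windows against 52.0% of promoters. CCAAT occurred in the 4 globin genes and Klf1 against 33.8%, and TATAA in the 4 globin genes and Alas2 against 22.8%. A match is a string of letters, and binding was not measured.

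The deposited values were inverted to whole reads, and a normalised count is a library's reads divided by its size factor. Libraries held 11508002 to 21289164 reads, and reads of ribosomal RNA genes made up 18.2% to 22.7% in bone marrow and 9.37% to 18.5% in small intestine. The marrow libraries had reads in 19713 to 30886 genes, and the intestinal ones in 26624 to 33346. Libraries are named by the columns of the table, BM for bone marrow and SI for small intestine.

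The markers of the marrow libraries went against their label in part. Per kilobase of exon, Mpo (myeloperoxidase, a granule enzyme of neutrophil and monocyte precursors) averaged 43768 normalised counts there, against 2185 for the eosinophil granule gene Prg2, 128 for the eosinophil peroxidase gene Epx, 21.7 for the eotaxin receptor gene Ccr3 and 3.09 for the interleukin 5 receptor gene Il5ra. The marrow values below are therefore those of the libraries labelled as eosinophils, and the cells that carried the red cell transcripts were not identified.

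Against 12.9% of all 38392 genes lower in small intestine at an adjusted p under 0.05 (limma, Benjamini-Hochberg over all genes), 7 of the 9 were lower. None was higher, against 22.0% of all genes, and 34.9% of genes were called in either direction. Every bone marrow library lay above every small intestine library for 8 of the 9, against 13.9% of all genes. Of the 9, 8 had a mean of at least 10 reads over the libraries, but the small intestine mean reached 10 reads for Alas2 and Car2 alone. The shares of all genes include 22177 genes with a mean under 10 reads. With only the other 16215 genes tested, 5462 were lower and 6362 higher, and 7 of the 8 were lower. The median difference over all genes was 0.37 on the deposited log2 scale, and all 9 lay below it. Of the genes called, 63.2% were higher in small intestine, and 29.5% once each library was centred on its median.

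**Figure D1:**
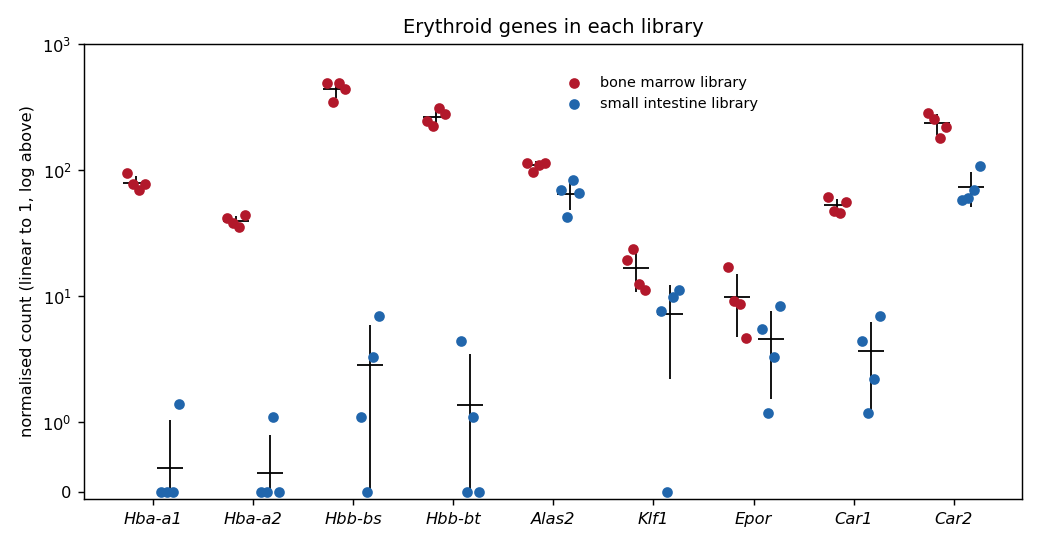
Normalised count (y axis, linear to 1 and logarithmic above) of each erythroid gene (x axis) in the 4 bone marrow (red) and 4 small intestine (blue) libraries, with the mean and SD in black. The globin genes lie at 35.4 to 492 in bone marrow and at 0 to 6.93 in small intestine, while Alas2, Klf1 and Epor lie closer together.

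Globin reads were present in every bone marrow library and nearly absent in small intestine. Hbb-bs, an adult beta globin gene, had 636, 531, 514 and 476 reads in BM_1, BM_3, BM_4 and BM_5, and 1, 0, 3 and 5 in SI_10, SI_11, SI_6 and SI_7. The groups were far apart, and SI_11 had none. Normalised counts averaged 442 ± 67.6 across the marrow libraries and 2.83 ± 3.06 across the intestinal ones (SD, n = 4 per tissue). The difference was -6.53 ± 0.48 on the deposited log2 scale (small intestine minus bone marrow, SE; adjusted p = 2.03e-05). This scale compresses low values, and the ratio of bone marrow to small intestine in summed reads scaled by size factors was 164. Its 95% interval, exact and for counting error only, ran from 86.3 to 359.

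Hbb-bt, the other adult beta globin gene, had 320, 341, 324 and 300 reads in the marrow libraries in the same order, and 4, 0, 1 and 0 in the intestinal ones. The groups did not overlap, and reads were seen in SI_10 and SI_6 alone. The difference was -6.35 ± 0.45 (adjusted p = 1.67e-05), and the ratio was 176 with an interval of 75.2 to 543.

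The alpha globin genes followed. Hba-a1 had 123, 119, 72 and 83 reads in bone marrow, and a single read in SI_7 was its only one in small intestine. The lowest marrow library was thus far above every intestinal library. The difference was -5.14 ± 0.31 (adjusted p = 7.32e-06), and the ratio was 272 with an interval of 48.5 to 10761. Hba-a2 had 54, 58, 37 and 47 reads in bone marrow and 1 read in SI_6. Its difference was -4.24 ± 0.28 (adjusted p = 1.22e-05), and the ratio was 134 with an interval of 23.8 to 5326. The wide intervals come with 1 read per gene in small intestine, and both means there, 0.347 and 0.273, were under the 0.884 that 3 reads in the group would give.

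The copies can share reads. Of the stretches of 75 bases, the shortest read length stated, in Hba-a1 transcripts, 67.9% also occurred in Hba-a2, and 84.6% of those of Hba-a2 in Hba-a1. The shares were 51.5% for Hbb-bs and 56.6% for Hbb-bt. The split within a pair is uncertain, since how reads matching several genes were counted is not stated in the sources used here. With the copies summed, the difference was -5.44 for alpha and -6.86 for beta.

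Summed over the 4 genes, globin reads numbered 1133, 1049, 947 and 906 in bone marrow and 5, 0, 5 and 6 in small intestine. The marrow sum was 49.3 to 70.7 RPM (reads scaled to a common library total, as in CPM), and the intestinal one 0 to 0.521. The ratio of the sums was 173, with an interval of 106 to 302. Beta reads were 4.93 to 7.69 times alpha reads within a bone marrow library. The spread of Hbb-bs between marrow libraries was 15.3% of its mean, beyond the 4.35% that counting alone gives, while that of Hba-a2 was 9.30% against 14.5%. Globin reads were few beside those of Mpo, which had 151 to 216 reads for each globin read in bone marrow.

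**Figure D2:**
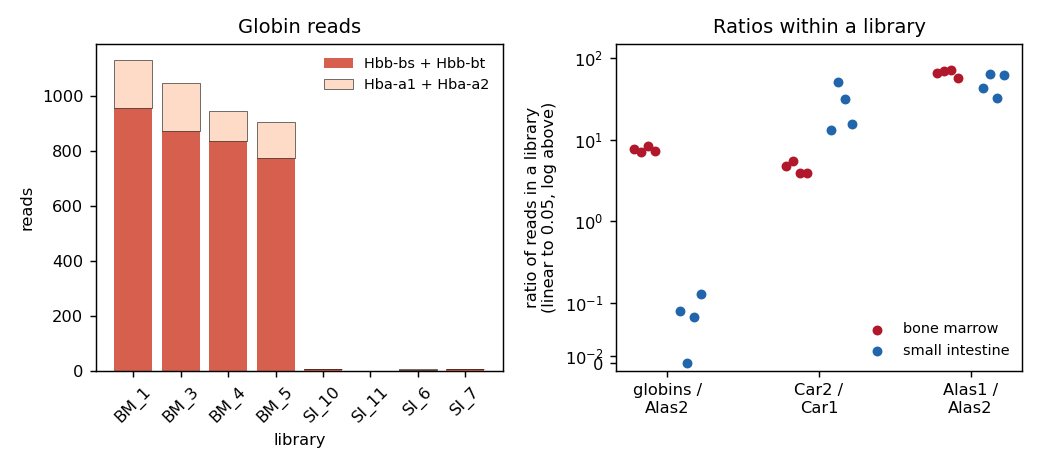
Left, reads of the beta (dark) and alpha (light) globin genes in each library, as stacked bars. Right, ratios of reads within a library on an axis linear to 0.05 and logarithmic above, 1 point per library. The globin to Alas2 ratio is 7.04 to 8.31 in bone marrow and 0 to 0.128 in small intestine, and the Car2 to Car1 ratio is 3.90 to 5.43 and 13.3 to 51.

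Alas2 fell far less than the globin genes. It had 149, 149, 114 and 123 reads in bone marrow and 63, 36, 76 and 47 in small intestine. No intestinal library reached a marrow library. The normalised counts were 109 ± 8.06 and 64.9 ± 16.7 (SD, n = 4 each), with a difference of -0.74 ± 0.23 (adjusted p = 0.0359). The ratio was 1.65, with an interval of 1.41 to 1.94. The call was lost when BM_1, BM_3, BM_4 or SI_7 was left out, with adjusted p between 0.0522 and 0.0853, and without BM_5 and SI_10 together, with 0.0855 (limma). There were 7.04 to 8.31 globin reads for each Alas2 read in bone marrow and 0 to 0.128 in small intestine. Alas1, which encodes the enzyme of the same step in other cells, had 57.9 to 72.3 reads for each Alas2 read in bone marrow and 32.4 to 63.4 in small intestine.

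Klf1 had 25, 36, 13 and 12 reads in bone marrow and 7, 0, 9 and 8 in small intestine. All marrow libraries lay above all intestinal ones in normalised counts, by a narrow margin, 11.2 in BM_5 against 11.1 in SI_7. The means were 16.6 ± 5.80 and 7.14 ± 4.97 (SD, n = 4 each). The difference of -1.28 ± 0.64 did not pass (adjusted p = 0.164), and SI_11, the library with no globin read, had no Klf1 read either. Without SI_11 it was -0.59 (adjusted p = 0.132). It passed with each library centred on its median (adjusted p = 5.86e-05), with quantile normalisation (0.0171) and with scaling to the total without ribosomal RNA (0.0268).

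Epor had 22, 14, 9 and 5 reads in bone marrow and 5, 1, 3 and 6 in small intestine. The groups overlapped. The means were 9.81 ± 5.10 and 4.56 ± 3.06 normalised counts (SD, n = 4 each), and the difference of -0.79 ± 0.40 did not pass (adjusted p = 0.169). It passed with median centring (0.00202) and quantile normalisation (0.0213). At these depths a change of Epor was not detectable in the deposited scaling, which does not show that its level was equal.

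Car1, the cytosolic carbonic anhydrase abundant in red cells and in colon epithelium, had 79, 72, 48 and 60 reads in bone marrow and 4, 1, 2 and 5 in small intestine. The groups were widely separated. Its difference was -3.11 ± 0.31 (adjusted p = 9.81e-05), and the ratio was 14.8 with an interval of 8.31 to 29.0. Car2, a carbonic anhydrase found in many cell types, had 373, 391, 189 and 234 reads in bone marrow and 53, 51, 63 and 77 in small intestine, again with no overlap. The means were 235 ± 45.5 and 73.5 ± 22.7 normalised counts (SD, n = 4 each), with a difference of -1.65 ± 0.26 (adjusted p = 0.00121) and a ratio of 3.33 (2.90 to 3.84). Car2 reads were 3.90 to 5.43 times Car1 reads in bone marrow and 13.3 to 51 times in small intestine, where Car1 had 1 to 5 reads.

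Per kilobase of exon, the order of the genes differed between the tissues. In bone marrow the order was Hbb-bs (576 ± 88.0 normalised counts per kilobase), Hbb-bt (376), Hba-a1 (97.9), Car2 (96.9), Hba-a2 (59.3), Alas2 (45.2), Car1 (41.9), Klf1 (10.8) and Epor (4.93). The ranges of the neighbours Hba-a1 and Car2, Alas2 and Car1, and Klf1 and Epor overlapped, and those of the other neighbours did not. In small intestine Car2 (30.3 ± 9.36) and Alas2 (27.0 ± 6.95) led, with overlapping ranges and above all others. The remaining 7 genes lay between 0.409 and 4.67 per kilobase, each with a range that overlapped its neighbour's.

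The genes whose deposited values correlated best with each gene over the 8 libraries were picked among 13292 genes, those with at least 10 reads on average other than the 9 genes, pseudogenes and genes known by a clone or prediction number. They were Hlf, Fam91a1 and Ccnf for Hbb-bs (Pearson r = 0.997, 0.996 and 0.996), Ak4 (0.998) for Hbb-bt, Smim5 (0.998) for Hba-a1, Tomm70a (0.999) for Hba-a2, Cdc25c (0.985) for Alas2, Tubg1 (0.996) for Car1, Cactin (0.996) for Car2 and Alkbh2 (0.974) for Klf1. The 8 points fall into the tissues, so a gene that separates them matches many others: 1680 genes exceeded 0.95 for Hbb-bs, 60 for Alas2 and 4 for Klf1. Epor had too few reads for this.

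In 7 lists of 87 further erythroid genes, 84 were in the table, and 30 were lower, 22 higher and 32 not called. These are 35.7% lower against 12.9% of all genes, and 26.2% higher, close to the 22.0% of all genes. A fit of only genes with at least 10 reads on average held 74 list genes, 34 lower and 24 higher. Of all 16215 genes in that fit, 5462 were lower and 6362 higher. All-gene shares also stand beside the calls of each list below. They are to be read with these filtered counts, since 74 of the 84 genes had at least 10 reads on average. The median difference of the 84 was -0.04, against 0.37 over all genes and 0.12 over those 16215. Each of the 30 falls passed under all 3 other scalings, and 11 of the 22 rises did. The scalings were median centring, quantile normalisation, and scaling to the total without ribosomal RNA. In that order they moved the median difference over all genes down from 0.37 to -0.53, -0.03 and 0.05. Falls therefore pass more readily under them than rises, here and in every list below. The scalings cannot weigh falls against rises. Add1 and Fbxo7 changed sign with median centring. When libraries were left out, 22 of the falls and 20 of the rises passed each time.

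Among haem synthesis genes 7 of 13 were lower, against 12.9% of all genes, and none higher, against 22.0%. Slc25a37, the mitochondrial iron importer mitoferrin, averaged 2915 ± 243 in normalised counts across marrow libraries against 598 ± 223 across intestinal ones (SD, n = 4 per tissue), a difference of -2.34 ± 0.26 (adjusted p = 0.000212). The difference of Abcb10, a mitochondrial transporter, was -2.32 ± 0.18, and that of Alas1 -1.24 ± 0.20. For haem breakdown, 2 of 4 were lower, against the same 12.9%, and none higher. The 2 were Hmox1 (haem oxygenase, -1.51 ± 0.20) and Blvra (biliverdin reductase, -0.90 ± 0.19), while Hmox2 did not pass. None of the 6 other globin genes passed, including Hbb-bh1, Hba-x and Hbq1b, and each had a mean below 3 normalised counts in both tissues.

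Erythroid transcription factor genes split in direction, with 7 lower, 6 higher and 1 not called of 14. These are 50% lower against 12.9% of all genes, and 42.9% higher against 22.0%. All 14 had at least 10 reads on average, and in the fit of only such genes 5462 of 16215 were lower and 6362 higher. Bcl11a, a repressor of embryonic globin genes also used by lymphoid cells, was lower (-4.53 ± 0.43), as were Tal1 (-3.54 ± 0.27) and its partner Lmo2 (-2.82 ± 0.19). Gata1, which is used by red cell, megakaryocyte, mast cell and eosinophil lineages, averaged 10.9 ± 4.01 in normalised counts across marrow libraries against 167 ± 18.1 across intestinal ones (SD, n = 4 per tissue), a difference of 3.61 ± 0.26 (adjusted p = 1.70e-05). Gfi1b was higher by 6.27 ± 0.38, and Klf3 by 2.60 ± 0.22. These 3 were among the 4 of the 6 rises that passed under every scaling, as all 7 falls did. The gene for a leading erythroid factor thus rose where globin genes had few or no reads.

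Of the 9 genes of erythropoietin signalling in the table, 7 were higher, against 22.0% of all genes, and none lower, against 12.9%. Socs2, a feedback inhibitor induced by many cytokine receptors, averaged 6.62 ± 5.86 in normalised counts across marrow libraries against 3162 ± 848 across intestinal ones (SD, n = 4 per tissue), a difference of 8.45 ± 0.42 (adjusted p = 2.84e-06). Cish (6.38 ± 0.31), Pim1 (6.01 ± 0.29), Socs3 (5.23 ± 0.23), Lyn (2.18 ± 0.19) and Jak2 (2.04 ± 0.23) were also higher, and each of these passed under all scalings, whereas Stat5b (1.26 ± 0.22) did not. JAK2 and STAT5 also act downstream of receptors other than that of erythropoietin, and Epor itself did not pass.

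Of 23 red cell membrane and cytoskeleton genes, 8 were lower, 5 higher and 10 not called. The falls stand against 12.9% of all genes, and the rises were near the 22.0% of all genes. With median centring 10 were lower and 0 higher, and none of the 5 rises passed under every scaling. The glycophorin gene Gypc (-3.36 ± 0.21), the anion exchanger gene Slc4a1 (-3.34 ± 0.67) and Xk (-2.45 ± 0.20) were lower. Epb41 (1.54 ± 0.21), which encodes a widely used cytoskeletal protein, was among the 5. Of 15 late maturation genes in the table, 6 were lower, led by the amino acid transporter gene Slc43a1 (-3.73 ± 0.26) and with Hemgn (-3.03 ± 0.73). Another 4 were higher, led by Pklr (3.70 ± 0.61). The falls were 40% against 12.9% of all genes, and the rises 26.7%, near the 22.0% of all genes. Of the 15, 14 had at least 10 reads on average. In the fit of only such genes 5462 of 16215 were lower and 6362 higher. All 6 falls and 1 of the 4 rises, that of Pklr, passed under every scaling. Pklr also had its most reads of the intestinal libraries, 169, in SI_6, against 21 to 47 in the others. Of the 14 other carbonic anhydrase genes, 7 were higher and 1 lower, against 22.0% and 12.9% of all genes. With median centring 3 were higher and 4 lower, and 2 of the 7 rises passed under every scaling. Car4, an enzyme bound to the outer membrane, rose by 4.62 ± 0.64 and Car8 by 4.66 ± 0.75, while Car3 was lower (-2.18 ± 0.55), a call lost without SI_7 (adjusted p = 0.0542). Car4 had 52, 88, 244 and 90 reads in SI_10, SI_11, SI_6 and SI_7, and Car8 had 50, 58, 213 and 87. Both were highest in SI_6, as were 7 of the 14 genes and all 11 epithelium markers described below, and both passed without that library. The part of epithelial RNA in these rises was not tested.

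**Figure D3:**
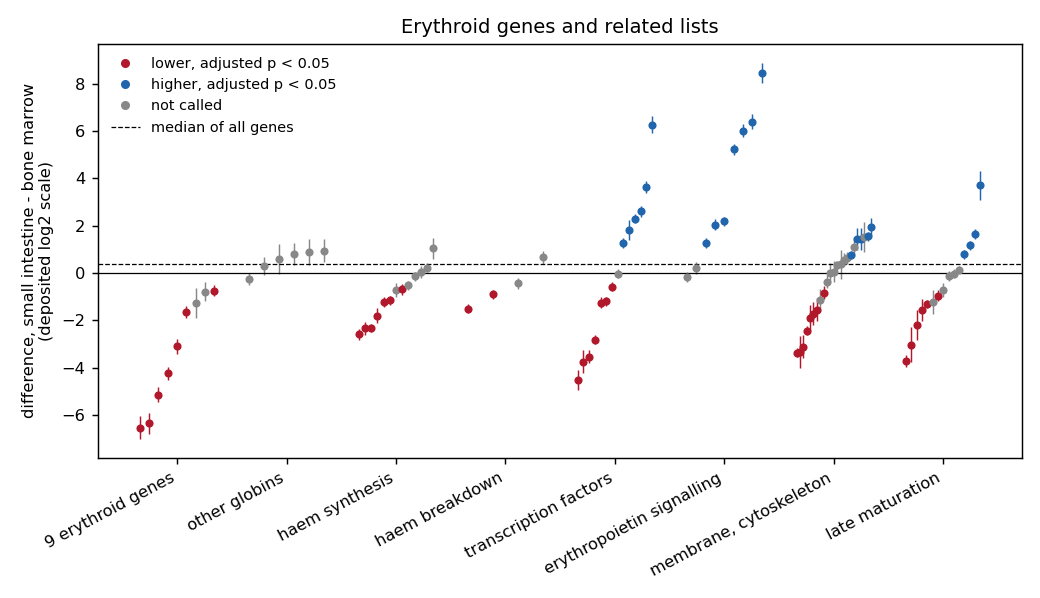
Difference on the deposited log2 scale (y axis, small intestine minus bone marrow, bars are SE) of the erythroid genes and the 7 related lists (x axis), 1 point per gene, coloured by call. The 4 globin genes lie between -6.53 and -4.24, while genes of erythropoietin signalling reach 8.45 and the median of all genes (dashed) is 0.37.

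Markers of other cells moved between the tissues as well, and the shares of all genes beside their counts are 22.0% higher and 12.9% lower. Neutrophil precursor markers were lower in small intestine for 8 of 8 genes, and their summed normalised count was 310617 to 397384 in bone marrow and 424 to 522 in small intestine, with Mpo at 10010 to 12522 RPM in bone marrow. Of the eosinophil markers, Siglecf (a gate marker), Il5ra and Ccr3 were higher in small intestine and Epx, Prg2 and Prg3 lower. The Ccr3 level averaged 70.9 ± 25.7 across marrow libraries against 16351 ± 2623 across intestinal ones (normalised counts, SD, n = 4 per tissue). B cell markers were lower for 3 of 6 genes (278 to 428 summed in bone marrow, 76.6 to 126 in small intestine), mast cell and basophil markers for 4 of 8 (265 to 381, and 22.5 to 52.5), and haematopoietic progenitor markers for 3 of 8, with 4 higher. Intestinal epithelium markers were higher for 11 of 11 genes, all 11 highest in SI_6 of the intestinal libraries, with sums of 3084 to 22021 against 147 to 191, and Phgr1 was at 0 in bone marrow. Megakaryocyte and platelet markers were higher for 4 of 11 and lower for 1, macrophage markers higher for 6 of 7, osteoclast markers for 4 of 6, with Ocstamp at 0 in bone marrow, and endothelium markers for 5 of 5. Under every scaling 3 of the 4 megakaryocyte, 4 of the 6 macrophage, 2 of the 4 osteoclast and all 5 endothelium rises passed. Their part in the values of the red cell genes was not tested.

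**Figure D4:**
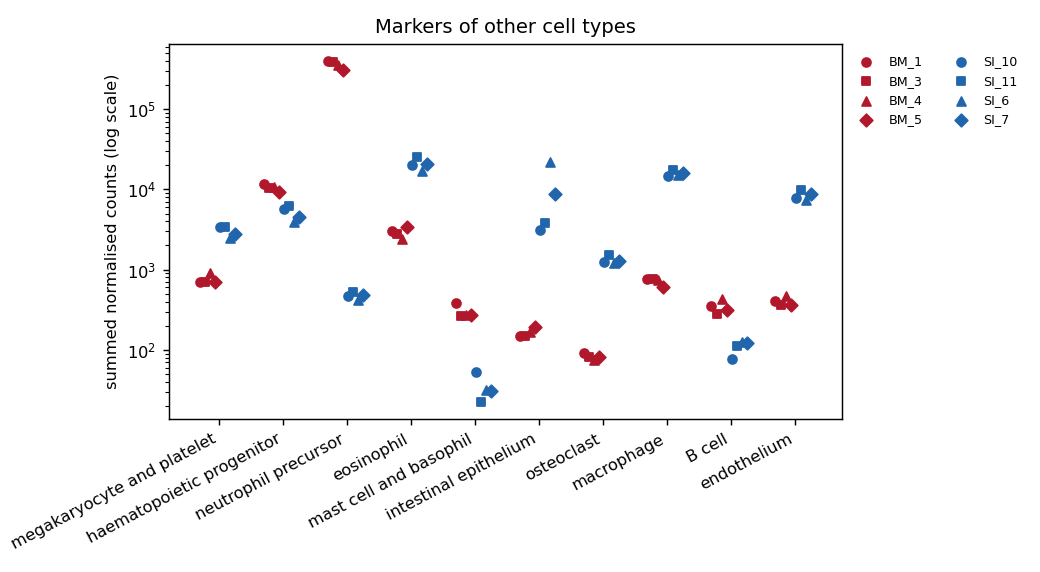
Summed normalised counts of each marker list (y axis, log scale) by cell type (x axis) in each library, bone marrow in red and small intestine in blue. Neutrophil precursor markers separate the tissues most, at 310617 or more in bone marrow and 522 or less in small intestine, and epithelium markers spread from 3084 to 22021 among the small intestine libraries.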

How the data were processed

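RNA from eosinophils sorted from bone marrow and small intestine was amplified to cDNA and read from a single end (at least 75 bases). The authors aligned reads to GRCm38 and deposited one table of variance-stabilised log2 values from DESeq2 (R 4.0.3 per the labels). The aligner is not named in the sources used here. The table's columns named a tissue but not a single sample, so a library stands for a replicate of its group. The labels list separate samples, and the study describes them as separate female mice of each tissue. Which column is which mouse is not given.

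The closed form of the transformation was inverted from the lowest value, 0.92971568, which gave whole reads within 0.05 for 100% of genes. The 38392 genes were compared on the deposited log2 values by limma (version 3.58.1, R 4.3.3). The prior was constant, and neither a covariate nor a filter was used. The test was 2-sided, small intestine minus bone marrow, with Benjamini-Hochberg adjustment and a threshold of 0.05. The authors' own fit used DESeq2. Ratios of summed reads carry exact (Clopper-Pearson) conditional 95% intervals, which cover counting error only. Alternatives were other priors, pseudocounts of 1 and 5, limma voom on the recovered reads, a filter at a mean of 10 reads, other scalings, copies summed, and leaving out libraries. Leaving out BM_5 and SI_10 together was chosen after seeing the data. Gene coordinates and exon lengths are from GENCODE M21, promoters from RefSeq.

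The 9 genes and all lists were chosen with earlier results of these data known. Named are all 9, the 3 most abundant genes and the largest called rise and fall of each list, and for the correlations the 3 best matches. Gata1, Tal1, Lmo2, Slc4a1, Xk, Hemgn, Stat5b, Cish, Socs3, Fbxo7, Il5ra, Prg3, Phgr1 and Ocstamp fall outside that rule and were chosen after their values were seen. A gene that the rule names is not reported here. Ahsp, Fam132b and Fam46c had no row under those symbols. Descriptions and figures used Python 3.11.15 (pandas 2.3.3, numpy 2.4.6, matplotlib 3.10.9, scipy 1.17.1).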

Additional observations from a re-analysis of the deposited data

Results flagged for a closer look

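Single libraries stood apart in 16 of 189 groups of 4, where the gap to the nearest library divided by the whole range was above Dixon's critical value for 4 samples. Chance flags about 1 in 20 groups, or 9.4 here. Many of these groups had few reads. Among the red cell genes the ratio was 1.0 for Hba-a1 in small intestine, where SI_7 had the only read, and 1.0 for Hba-a2, where SI_6 had it. For Klf1 in small intestine it was 0.866, with no read in SI_11, and for the 4 globin genes summed it was 0.836, again with SI_11 lowest at 0.

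In the lists, SI_11 was highest for Acp5 (0.947), Ppbp (0.947) and the sum of late erythroid maturation genes (0.891), and lowest for Hba-x in small intestine (0.897, tied values). In bone marrow BM_1 was highest for Epb41 (0.861), Pklr (0.862, tied values), the late erythroid maturation sum (0.901) and the mast cell and basophil sum (0.958). BM_5 was highest for Hba-x (1.0) and Hbb-bh1 (1.0), both with the other libraries tied, and lowest for the macrophage sum (0.852). BM_4 was highest for the megakaryocyte and platelet sum (0.99).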

How the results depend on the processing

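No paired analysis was possible because the replicate numbers in the labels are not shared between the tissues and the table's columns carry no matching numbers. Over 18 alternatives, Hba-a1, Hba-a2, Hbb-bs, Hbb-bt, Car1 and Car2 stayed lower and called in each alternative run for them, and no difference of the 9 genes changed sign. The number of the 9 called lower was 6 to 7 when each library was left out, and 6 without BM_5 and SI_10. With each library centred on its median it was 9, with the list genes higher at 11 and the genes of the whole table higher at 4285 and lower at 10216. The cause was not tested. The call of Alas2 was the least stable, and those of Klf1 and Epor were gained under other scalings, with the values given above. The total number of calls was 13402, and 10982 to 15311 over the alternatives. Depth limits the small intestine values of the globin genes, Klf1, Epor and Car1, which had 0 to 9 reads per library.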
